A study of Mus musculus with 50 samples.

Results

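The 10 colon arrays of mice that lacked FADD in intestinal epithelial cells and carried no second gene deletion (FADD IEC-KO) were compared with each other, out of 50 arrays in the series. They were ordered by an inflammation index, the mean of the log2 signals of S100a8 and S100a9, which together encode the neutrophil protein calprotectin. The members were chosen by genotype, and the index itself came from these arrays. How far a gene varied among them and how closely it followed the index are therefore given as a description, with no test. Arrays are called by the replicate numbers in their titles, which run in a first series (1 to 30) and a second (86 to 124). Replicates 21, 22, 23, 24 and 25 belong to the first and 89, 95, 117, 120 and 124 to the second. The labels do not say what the series stand for, so each gene was centred on its mean in each series for slopes, r and SD. Signals of single arrays are given uncentred unless said otherwise.

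The study measured colon tissue of mice at 10 to 12 weeks of age, kept without specific pathogens on regular chow, on Affymetrix arrays. The other 40 arrays were 5 each of the floxed controls Fadd fl/fl and Casp8 fl/fl, 10 of CASP8 IEC-KO, which lacked caspase-8 in intestinal epithelial cells, and 4 co-deletions with 5 arrays each. Loss of Zbp1 in the whole animal was combined with the FADD deletion in FADD IEC-KO Zbp1 -/-. Loss of Mlkl was combined with it in FADD IEC-KO Mlkl -/- and with the caspase-8 deletion in CASP8 IEC-KO Mlkl -/-. Epithelial loss of RIPK3 was combined with it in FADD IEC-KO RIPK3 IEC-KO. The Fadd fl/fl arrays were in the first series and the Casp8 fl/fl arrays in the second. The labels name no agent and no Cre driver, and they do not state whether arrays came from littermates or from separate cages. P-values below measure only the spread between these samples. The deletion was epithelial, whereas whole colon was extracted, so each value mixes epithelium, immune cells, stroma and muscle.

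FADD links death receptors to caspase-8. In intestinal epithelium, caspase-8 activity holds back necroptosis, a lytic death in which the kinase RIPK3 activates the membrane-breaking protein MLKL and in which the nucleic acid sensor ZBP1 can engage RIPK3. Lytic death releases cell contents and breaks the barrier to gut bacteria, and neutrophils are among the first cells to enter an inflamed colon. They carry S100A8 and S100A9 as a large part of their cytosolic protein, which is why calprotectin is used as a marker of gut inflammation.

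The promoters of 4 genes are shown first, because these genes lie at or near the steep end of the gradient and went up and down together across the arrays. They are the 2 index genes, the neutrophil-attracting chemokine gene Cxcl2 and the lipocalin gene Lcn2, whose product withholds iron from bacteria. Each is the 250 bases before the RefSeq transcription start on GRCm38.p6, read 5′ to 3′ on the gene's strand. They are S100a8 at chr3:90668821-90669070 on the plus strand, S100a9 at chr3:90695722-90695971 on the minus strand, Cxcl2 at chr5:90903649-90903898 on the plus strand and Lcn2 at chr2:32387740-32387989 on the minus strand. Capitals mark matches to GGG and TTTCC parted by any 2 bases (a form of the NF-kB site), TTGCNNAA (a form of the C/EBP site), both sought on both strands, and TATAAA (the TATA box, sought on the gene's strand only).
S100a8: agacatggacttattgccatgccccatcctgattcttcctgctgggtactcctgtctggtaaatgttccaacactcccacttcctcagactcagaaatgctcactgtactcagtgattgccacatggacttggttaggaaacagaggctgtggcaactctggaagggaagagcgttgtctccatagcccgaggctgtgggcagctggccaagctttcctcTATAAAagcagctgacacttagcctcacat
S100a9: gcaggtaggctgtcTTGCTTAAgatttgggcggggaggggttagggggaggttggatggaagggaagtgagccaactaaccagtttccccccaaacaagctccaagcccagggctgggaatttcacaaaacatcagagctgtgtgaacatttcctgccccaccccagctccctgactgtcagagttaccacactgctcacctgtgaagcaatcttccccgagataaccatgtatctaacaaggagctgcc
Cxcl2: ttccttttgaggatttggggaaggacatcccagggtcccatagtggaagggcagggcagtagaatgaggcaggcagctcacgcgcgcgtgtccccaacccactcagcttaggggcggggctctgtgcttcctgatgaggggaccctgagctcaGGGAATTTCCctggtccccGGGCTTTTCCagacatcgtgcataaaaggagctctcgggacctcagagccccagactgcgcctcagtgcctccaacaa
Lcn2: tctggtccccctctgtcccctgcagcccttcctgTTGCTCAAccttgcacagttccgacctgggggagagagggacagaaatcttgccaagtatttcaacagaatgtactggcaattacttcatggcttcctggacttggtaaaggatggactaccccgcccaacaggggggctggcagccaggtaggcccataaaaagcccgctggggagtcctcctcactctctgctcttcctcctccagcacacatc
The S100a8 window holds TATAAA 30 bases before the start, and Cxcl2 holds GGGAATTTCC and GGGCTTTTCC 97 and 78 bases before it. S100a9 and Lcn2 hold TTGCTTAA and TTGCTCAA, 236 and 216 bases before theirs. The NF-kB form occurs in 1.41% of the 32851 RefSeq windows of this length, TTGCNNAA in 9.56% and TATAAA in 7.59%. A match is a stretch of letters and not a binding site that was measured.

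S100a8 and S100a9 ran from the level of floxed colon to far above it. In rising order of the index, S100a8 stood at 3.05 in replicate 95, 3.22 in 89, 2.99 in 120, 4.21 in 21, 5.48 in 24, 5.30 in 25, 6.79 in 124, 8.93 in 23, 9.69 in 117 and 11.26 in 22. S100a9 stood at 4.10, 4.28, 4.60, 4.64, 5.42, 5.65, 7.30, 8.46, 9.33 and 10.70 log2 in the same order. Replicates 95, 89 and 120 lay within the floxed range of both genes, 2.94 to 3.46 for S100a8 and 4.04 to 4.70 for S100a9, and replicates 22, 23 and 117 lay far above it. The genes followed each other across the 10 arrays, with a Pearson r of 0.995 and a Spearman rho of 0.855 after centring.

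The index was 3.58 in replicate 95, 3.75 in 89, 3.80 in 120, 4.43 in 21, 5.45 in 24, 5.48 in 25, 7.05 in 124, 8.70 in 23, 9.51 in 117 and 10.98 in 22. Its mean was 7.01 ± 2.74 (SD, n = 5) in the first series and 5.54 ± 2.65 (SD, n = 5) in the second, so each series held low and high arrays. The 10 floxed arrays lay between 3.56 and 3.96 with a mean of 3.78 ± 0.14 (SD, n = 10). No array of another genotype reached replicate 124. The highest of the other 40 was CASP8 IEC-KO replicate 104 at 6.53, followed by CASP8 IEC-KO replicate 17 at 5.90, and co-deletions of Zbp1, Mlkl or RIPK3 stayed at or under 4.55. Values were spread along the scale with no separate clusters. Arrays are ordered by this uncentred index, whereas slopes and r use the centred one. After centring, replicate 21 was lowest at -2.58, below replicate 95 at -1.96, and replicates 22 and 117 stood at 3.97 each.

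**Figure D1:**
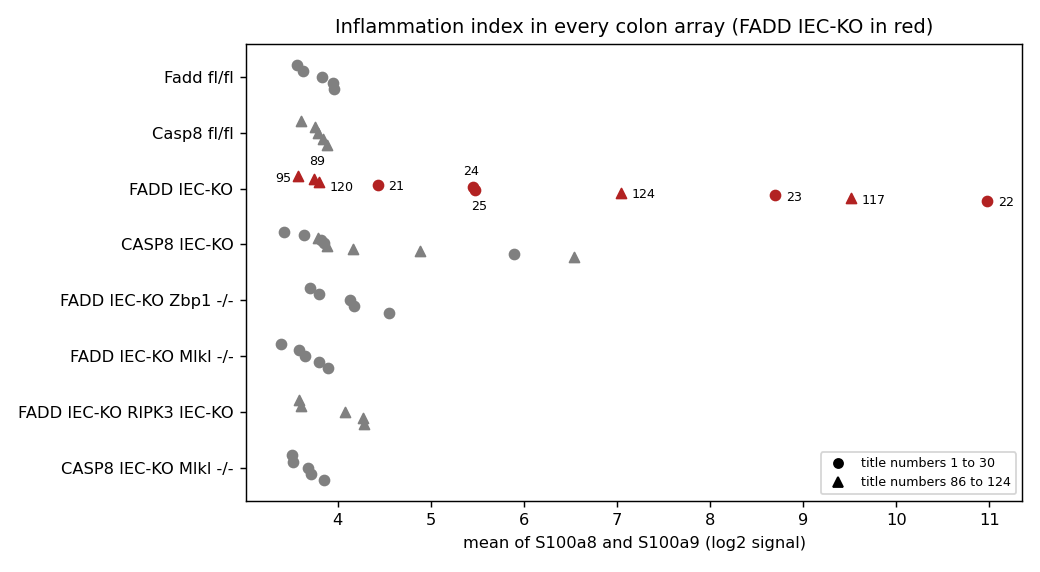
The inflammation index (mean of S100a8 and S100a9, log2 signal, horizontal axis) of every array by genotype, 1 point per array, with circles for title numbers 1 to 30 and triangles for 86 to 124. The 10 FADD IEC-KO arrays (red, with replicate numbers) run from 3.58 to 10.98, whereas the 10 floxed arrays lie between 3.56 and 3.96 and the other 40 arrays end at 6.53.

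Variation among the knockout arrays was concentrated on this axis. The centred index alone took up 42.5% of the within-series sum of squares over the 19492 genes other than S100a8 and S100a9. The first principal component of the same genes took up 43.7% and followed the index with r = 0.982. A within-series SD of at least 1 log2 unit was reached by 121 genes (0.621%) in FADD IEC-KO, by 37 in CASP8 IEC-KO and by 8 in the floxed arrays. The median SD over all genes was 0.208 in FADD IEC-KO, 0.191 in CASP8 IEC-KO and 0.176 in floxed colon. Of the 121 genes, 91 had r of at least 0.8 with the index, 8 had r of at most -0.8 and 3 had r between -0.3 and 0.3. The widest-spread genes that were not Y-linked were S100a8 (SD 2.98), Il1b (2.83), Retnlb (2.56), Stfa2l1 and S100a9 (2.42 each), Retnlg (2.40), Acod1 (2.33), Plet1 (2.28) and Cxcl2 (2.25). Without replicates 22 and 117, the arrays farthest from the centre of the index, 53 genes reached that SD.

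A gene was counted as rising where r with the centred index was at least 0.9 and its slope was positive in each series alone, and as falling where r was at most -0.9 with negative slopes. The slope is the log2 change of a gene per log2 unit of index. Apart from the index genes, 255 of 19492 genes rose (1.31%) and 278 fell (1.43%). These counts depend on the limit chosen for r and were not tested. Rises were steeper than falls. The largest slope was 1.03 and the median of the rising genes 0.23, against -0.34 and -0.12 for the falling genes, and 25 genes rose by at least 0.5 per unit. Without replicates 22 and 117, 99 of the 255 and 80 of the 278 were still counted under the same rule, and r was at least 0.8 for 199 and at most -0.8 for 226. Just inside the limit lay P4hb (r = 0.9016), Cd47 and Ssh1 on the rising side and Zxdc (r = -0.9002), Ces1c and Slc9a2 on the falling side. Just outside lay Lsm4, Ptpn7 and Slfn2 (r = 0.8997 each), and Plekha6, Plekhh1 (r = -0.8999 each) and Ces1e.

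The 12 steepest rising genes encode inflammatory cytokines, chemokines, neutrophil proteins and matrix proteases. Il1b, the cytokine interleukin-1 beta, had a slope of 1.03 ± 0.07 (SE). It stood at 4.58 in replicate 95, 5.32 in 89, 4.55 in 120, 5.01 in 21, 6.40 in 24, 6.50 in 25, 9.05 in 124, 10.42 in 23, 10.81 in 117 and 11.32 in 22. The 4 arrays of highest index were thus more than 2 log2 units above every other array for this gene. Cxcl2 followed the index most closely (r = 1.00, rho = 0.99, and r = 1.00 without replicates 22 and 117). Its signal was 4.74, 4.67, 4.76, 5.15, 5.77, 5.78, 7.51, 8.86, 9.53 and 10.38 in the same order, so the order of the arrays was nearly that of the index. Ccl3, which draws monocytes and neutrophils, ranged from 4.52 to 10.24 around a median of 5.57.

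Several of these genes mark granulocytes or the response to bacteria. Retnlg, a resistin-like protein of myeloid cells, ranged from 3.54 to 10.63 with a median of 4.90 and a slope of 0.88, and Stfa2l1, a stefin inhibitor of cysteine proteases, from 2.31 to 8.32 with a median of 3.03. Acod1, which makes the antimicrobial metabolite itaconate, ran from 4.83 to 10.28, and Lcn2 from 5.30 to 10.97 around 6.83. Il1a, the interleukin-1 released from damaged cells, ran from 3.67 to 8.95. The acute phase protein gene Hp (slope 0.67), the stefin gene Stfa2 (0.68) and the stromelysin genes Mmp3 (0.66) and Mmp10 (0.65) completed the 12. For all 12, r was between 0.94 and 1.00, and between 5 and 8 of the 10 arrays lay above every floxed array. The remaining arrays lay within or below the floxed range of the gene.

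**Figure D2:**
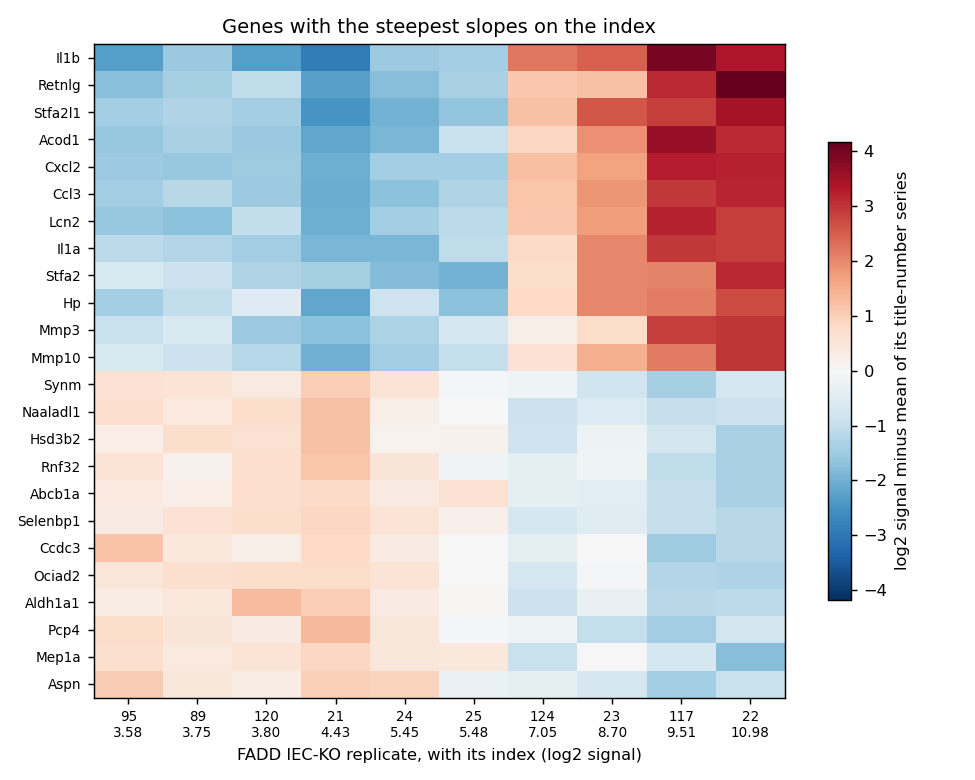
Log2 signal minus the mean of its title-number series (colour) for the 12 genes with the steepest positive and the 12 with the steepest negative slope on the index, across the 10 FADD IEC-KO arrays in order of the index (second line of the axis labels). Replicates 124, 23, 117 and 22 are above their series mean for each of the 12 rising genes, from Il1b (slope 1.03) to Mmp10 (slope 0.65).

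Most neutrophil markers rose. Of 21 measured markers other than the index genes, 13 were counted as rising, 17 at the looser limit of 0.8, and none as falling, against 1.31% of all genes rising at 0.9 and 4.18% at 0.8. Their median slope was 0.40, where the median of all genes was -0.0031. Csf3r, the receptor for the granulocyte growth factor, ran from 5.63 to 8.66 (r = 0.99) and Clec4d, a myeloid lectin receptor, from 3.98 to 8.57 (r = 0.99). The granule genes Mpo and Elane, which are transcribed in bone marrow precursors, had r of -0.04 and -0.64 (both named after their values were seen). The mean of the markers was 5.00 in replicate 95 and 7.88 in replicate 22, and 6 of 10 arrays were above the floxed range of 4.91 to 5.18. In these bulk samples, more neutrophils and more RNA per neutrophil cannot be told apart, and the same holds for every cell type below.

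Some monocyte and macrophage markers rose with them. Of 21 monocyte and macrophage markers, 5 rose, against 1.31% of all genes, and none fell, with a median slope of 0.15. Fcgr4, a receptor for antibody on inflammatory monocytes and neutrophils, ran from 3.77 to 6.81 (r = 0.99). Ly6c2, which marks blood-derived monocytes, ran from 7.91 to 10.48 (r = 0.95), and the lipopolysaccharide co-receptor gene Cd14 from 7.47 to 9.19 (r = 0.96). Mrc1 and Cd163, scavenger receptors of resident macrophages, had r of -0.58 and -0.45, whereas Csf1r and C1qa, which those cells also express, reached 0.8. These 4 are named after their values were seen. The mean of the list was above the floxed range of 6.43 to 6.90 in 9 of 10 arrays, replicate 95 included.

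Few lymphocyte markers reached the limit. The interferon gene Ifng alone rose among 20 markers of T cells and cytotoxic lymphocytes, where 1.31% of all genes rose. It was at 6.04 and 6.57 in replicates 117 and 22 and between 3.88 and 4.80 in the other 8 arrays, so its r of 0.91 became 0.75 without those arrays. Gzma, a cytotoxic granule protease, ran from 4.36 to 7.04 with r = 0.89. Of 17 B cell and plasma cell markers none reached 0.9 and 4 reached 0.8 (Prdm1, Jchain, Pou2af1 and Mzb1), against 4.18% of all genes. The plasma cell markers Txndc5, Derl3, Tnfrsf17 and Sdc1 had r of 0.77, 0.76, 0.54 and 0.45 (named after their values were seen). Of 14 mast cell and eosinophil markers, none reached 0.8 in either direction, and the granule protein gene Prg2 had the highest r (0.79).

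Many acute cytokine and chemokine genes rose over the same arrays. Of 25 measured, 12 rose and none fell, 17 rose at the limit of 0.8, and the median slope was 0.24. The shares of all genes rising at 0.9 and 0.8 were 1.31% and 4.18%. Tnf ran from 5.61 to 8.82 (r = 0.98), and all 10 arrays, those of lowest index included, lay above the floxed range of 3.83 to 5.30. Il1f9, which encodes interleukin-36 gamma, ran from 3.35 to 7.37 (r = 0.99). Il17a, Il17f, Il22 and Il23a, cytokine genes of the type 17 response, had r of -0.20, 0.26, 0.37 and 0.32 (named after their values were seen). Since the neutrophil list moved over the same arrays, with a mean from 5.00 to 7.88, its part in the cytokine signals was not tested.

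The mean of the interferon-gamma response genes was above floxed colon already at the low end of the gradient. All 27 listed genes had positive slopes, with a median of 0.21, but only Cxcl9 and Cxcl10 reached r of 0.9 and 12 reached 0.8. Among all genes, 1.31% rose at 0.9 and 4.18% at 0.8. Cxcl9, a T cell attracting chemokine, ran from 5.52 to 10.18, with 8 of 10 arrays above floxed colon. The list mean had r = 0.90 and rho = 0.95 with the index, where the mean of the neutrophil markers had r = 0.99 and rho = 0.79. The interferon-gamma mean was above the floxed range of 6.81 to 7.15 in all 10 arrays, from 7.29 in replicate 21 to 9.46 in replicate 22. Replicate 24, with an index of 5.45, was already at 8.55. The 25 type I interferon-stimulated antiviral genes had a median slope of 0.10, none reached 0.9 and 3 reached 0.8, among them the antiviral GTPase gene Mx2 (5.31 to 6.36, r = 0.86). Replicate 95, lowest of all in index, had a mean of 7.03 on this list, above the floxed range of 5.87 to 6.25.

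Genes differed in where along the gradient they became high. This was read as the position of an array within a gene's own range of uncentred signals, with 0% for its lowest and 100% for its highest array. Cxcl2 stood at 19.3% in replicate 24, 19.4% in 25 and 49.8% in 124, where S100a8 stood at 30.0%, 28.0% and 46.0%. Nlrp3, the sensor of the inflammasome that matures interleukin-1 beta, stood below S100a8 in each of these arrays, at 9.9%, 16.8% and 32.7%. Mmp10 also stood below S100a8, at 12.3%, 21.1% and 35.3%, but was above Cxcl2 in replicate 25. Retnlb and Nos2 stood above 50% in all 3 of these arrays, and Plet1 in replicates 25 and 124. Retnlb stood at 67.7%, 79.0% and 62.6%, Plet1 at 36.1%, 82.3% and 85.0%, and Nos2 at 58.8%, 67.2% and 63.1%. The median of the 255 rising genes was 24.8%, 30.5% and 46.4%, and that of the interferon-gamma list 58.9%, 57.8% and 55.9%. Replicates 24 and 25 belong to the first series and 124 to the second, so a difference between the series enters these positions. With 1 array at each position, this order has no replicate and was not tested.

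**Figure D3:**
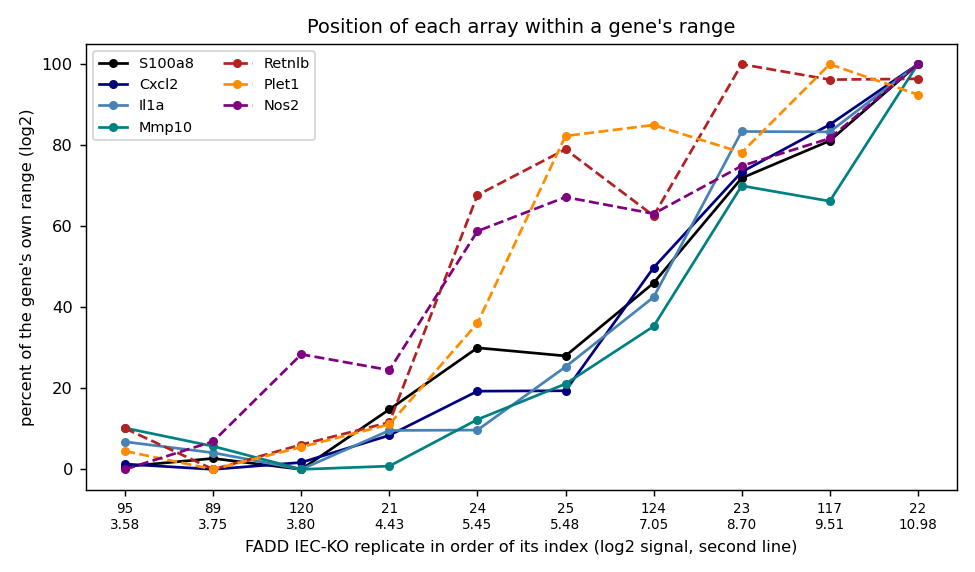
Position of each FADD IEC-KO array within a gene's own range of uncentred log2 signals (vertical axis, percent) in order of the index (second line of the axis labels). Retnlb, Plet1 and Nos2 (dashed) reach 62.6% to 85.0% in replicate 124, where S100a8, Cxcl2, Il1a and Mmp10 (solid) reach 35.3% to 49.8%.

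Some epithelial defence genes rose over the same arrays. Of 24 antimicrobial and stress genes, 3 rose (Lcn2, Saa3 and Nos2) and none fell at 0.9, against 1.31% and 1.43% of all genes. At 0.8, 11 rose and 2 fell, against 4.18% and 5.99%, and the median slope was 0.10. Lcn2 is also on the list of neutrophil markers and was counted as rising in both lists. Retnlb, a bactericidal resistin-like protein of goblet cells, was at 4.22, 3.55, 3.95 and 4.31 in the 4 arrays of lowest index. It stood at 7.98 in replicate 24, 8.72 in 25, 7.64 in 124, 10.09 in 23, 9.84 in 117 and 9.85 in 22, so the low and high arrays did not overlap and no intermediate value was seen. Nos2, the inducible nitric oxide synthase, ran from 4.82 to 10.43 around a median of 8.24, and 8 arrays were above floxed colon. The mucosal pentraxin genes Mptx1 and Mptx2 moved the other way, with Mptx1 between 8.25 in replicate 22 and 11.76 in replicate 21 (r = -0.88).

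Genes of epithelial repair moved in part. Of 17, S100a11 alone was counted as rising (11.05 to 11.98, r = 0.97), and 6 reached 0.8. The shares of all genes rising at these limits were 1.31% and 4.18%. Plet1, a surface protein that marks repairing colon epithelium, was above floxed colon (5.27 to 6.14) in all 10 arrays. It stood at 6.65, 6.41, 6.71, 7.01 and 8.34 in the 5 arrays of lowest index and between 10.60 and 11.76 in the other 5. The list mean was 8.29 in replicate 95 and 8.99 in replicate 22, beyond the floxed range of 7.90 to 8.18 in 7 of 10 arrays. Of 13 endoplasmic reticulum stress genes, Creld2 rose (7.62 to 8.75, r = 0.94) and 4 reached 0.8.

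Several matrix proteases and 2 vascular adhesion genes rose. Of 18 fibroblast and matrix genes, 4 rose, namely Mmp3, Mmp10, the collagenase gene Mmp13 (5.66 to 10.11, r = 0.97) and the protease inhibitor gene Timp1 (5.54 to 7.63, r = 0.91). The collagen genes Col1a1, Col1a2 and Col3a1, named after their values were seen, had r of 0.70, 0.42 and 0.34. Of 16 endothelial markers, Selp and Icam1 rose. For both lists, the share of all genes that rose was 1.31%. Selp, the selectin on which leukocytes roll, ran from 4.44 to 8.08 (r = 0.95), and Icam1, which holds them to the vessel wall, from 6.64 to 7.96 (r = 0.93). The adhesion genes Sele and Vcam1 did not reach 0.9, with r of 0.87 and 0.77. Pecam1 and Cdh5, which mark endothelial cells as such, had r of 0.41 and 0.56. Pecam1 and Cdh5 are also named after their values were seen.

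The 12 steepest falling genes were of mixed function, and several encode enzymes. Mep1a, a protease of the brush border, went from 9.91 in replicate 95 to 6.87 in replicate 22, around a median of 9.11, with a slope of -0.31 ± 0.05 (SE). Aldh1a1, which makes retinoic acid, ran between 6.36 and 9.11. Selenbp1, which oxidises methanethiol from gut bacteria, ran between 8.66 and 10.82 (r = -0.97). Naaladl1, a peptidase, ran between 4.43 and 6.72, and Hsd3b2, a steroid dehydrogenase, between 5.35 and 7.91. Aspn, a matrix proteoglycan, had a slope of -0.31 and ran between 6.55 and 9.07. Ociad2, Ccdc3 and Rnf32 had slopes of -0.30, -0.30 and -0.29. For the 12 steepest, r was between -0.97 and -0.90.

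Some genes of electrolyte transport and carbonic anhydrases fell, and others on the colonocyte list did not. Of 24 colonocyte genes, 4 fell (Car1, Car2, Slc26a3 and Slc9a2), 7 at the limit of 0.8, and the median slope was -0.05, against 1.43% and 5.99% of all genes falling at the respective limits. Slc26a3, the chloride and bicarbonate exchanger, was at 12.28, 12.47, 12.62, 12.60, 12.10, 12.23, 11.62, 11.18, 11.55 and 10.68 in order of the index. The 4 arrays of highest index were the 4 lowest for this gene, and 5 arrays were below the floxed range. Car1, a carbonic anhydrase, ran between 11.05 and 12.86 and Car2 between 11.19 and 12.43. Car1 and Slc26a3 mark colonic epithelium, and their high signals in every array match the labelled tissue. The sodium channel genes Scnn1a, Scnn1b and Scnn1g had r of -0.87, 0.51 and 0.50, and the exchanger gene Slc9a3 had r = -0.62. The structural and late differentiation genes Vil1 and Krt20 had r of -0.30 and 0.05. These 6 are named after their values were seen. Aqp4, a water channel gene outside the naming rule, was above floxed colon in all 10 arrays (9.69 to 10.94 against 7.85 to 9.27) with r = 0.00.

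Several detoxification genes fell. Of 25 xenobiotic and steroid metabolism genes, 7 fell, 11 at the limit of 0.8, none rose, 24 had negative slopes and the median slope was -0.13. Among all genes, 1.43% fell at 0.9 and 5.99% at 0.8. Abcb1a, the P-glycoprotein drug pump, ran from 11.56 in replicate 120 to 9.22 in replicate 22 (r = -0.97), and 9 arrays were below floxed colon. Gstm1, a glutathione transferase, ran between 9.53 and 11.64, and Cyp2d26 and Cyp2s1, both cytochrome P450 genes, fell with r of -0.95 and -0.94. The steepest slope on the list, -0.68, belonged to the P450 gene Cyp2c55 (5.02 to 10.92), which missed the limit with r = -0.89 and is named after its values were seen. Of 18 fatty acid oxidation genes 2 fell at 0.8, led by the thiolase gene Acaa2 (8.30 to 9.57). Of 17 respiratory chain genes none fell at that limit and 1 rose, where 4.18% of all genes rose.

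Smooth muscle genes were lower in the arrays of higher index. All 20 had negative slopes with a median of -0.23, 2 were counted as falling (Synm and Pcp4) and 16 reached -0.8. The shares of all genes falling at these limits were 1.43% and 5.99%. Myh11, the smooth muscle myosin heavy chain, was at 11.50, 11.35, 11.14, 11.34, 11.11, 10.26, 10.69, 9.49, 9.59 and 9.77 in order of the index. Synm, an intermediate filament gene, ran between 6.39 and 8.42, and Pcp4, a calmodulin regulator, between 5.62 and 7.95. The list mean lay between 8.01 and 9.76, and 9 of 10 arrays were below the floxed range of 9.67 to 9.91. Replicate 25 was at 8.39 with an index of only 5.48, below replicate 124 at 8.88 with an index of 7.05. Markers of enteric neurons and glia did not reach 0.8 in either direction (15 measured), and the axon growth gene Gap43 had the strongest r of -0.58. The depth of the dissected wall is not in the labels, and its part in the muscle signals was not tested.

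**Figure D4:**
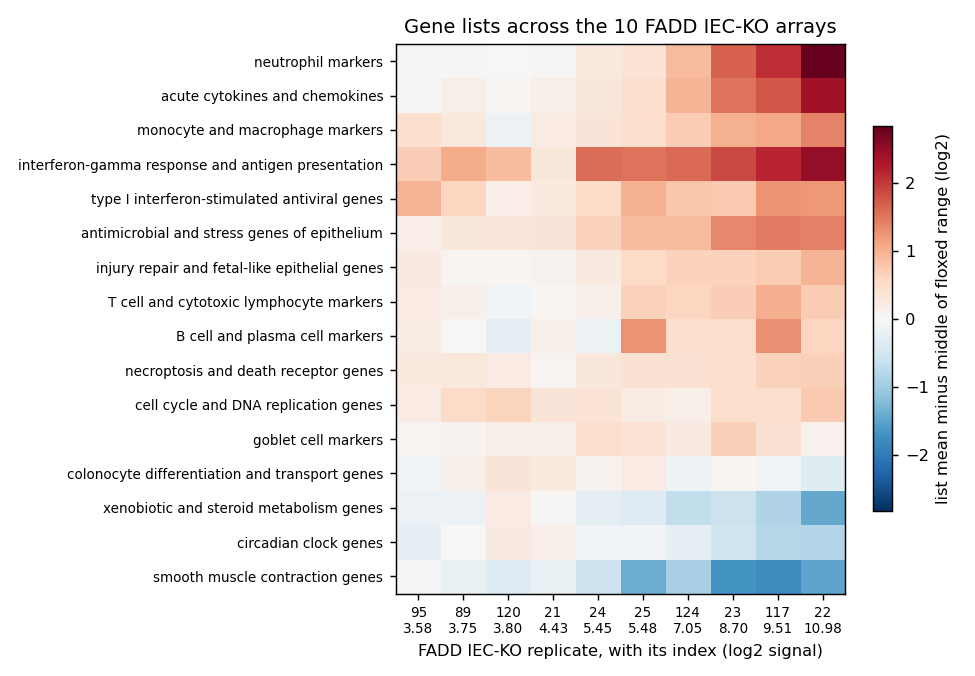
Mean log2 signal of 16 gene lists in each FADD IEC-KO array, minus the middle of the range of the 10 floxed arrays (colour), in order of the index (second line of the axis labels). Neutrophil markers reach 7.88 in replicate 22 against 4.91 to 5.18 in floxed colon, smooth muscle genes go down to 8.01 in replicate 117 against 9.67 to 9.91, and the interferon-gamma list is above floxed colon in all 10 arrays.

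Few secretory, stem cell and proliferation genes reached the limit of 0.9, at which 1.31% of all genes rose and 1.43% fell. Of 17 goblet cell markers, Ern2, a stress sensor of mucous cells, fell (8.46 to 9.05, r = -0.96), and the median slope was -0.01. At 0.8, 3 goblet markers fell (Ern2, Klk1 and Clca1), against 5.99% of all genes, and Retnlb rose. Of 18 tuft and enteroendocrine markers, none reached 0.9 and 2 fell at 0.8, the serotonin synthesis gene Tph1 (r = -0.84) and the tuft cell factor gene Pou2f3. Of 13 stem cell and Wnt genes, Axin2, a feedback target of Wnt signalling, fell from 7.97 in replicate 95 to 7.11 in replicate 22 (r = -0.96), and Cd44 rose at 0.8 (r = 0.82). None of 22 cell cycle genes reached 0.8. Their mean was above the floxed range of 7.60 to 8.10 in 7 of 10 arrays, and the nucleotide reductase gene Rrm2 was above floxed colon in all 10 (7.60 to 8.66).

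Fadd was below floxed colon in all 10 arrays, at 5.83 to 6.50 against 7.12 to 7.61, and had r = 0.52 with the index. Casp8 was at 10.57 to 10.96 (r = 0.14), and 8 of 10 arrays were above the floxed range of 10.11 to 10.67. Ripk3 was counted as rising, from 7.39 in replicate 95 to 9.66 in replicate 22 (slope 0.23 ± 0.04 SE, r = 0.92), and all 10 arrays were above floxed colon (6.36 to 7.07). Zbp1 (6.34 to 8.03, r = 0.78) and Mlkl (8.59 to 9.56, r = 0.69) were above floxed colon in all 10 arrays too, replicates 95, 89 and 120 included. Of 19 necroptosis and death receptor genes, 2 rose, Ripk3 and Tnfaip3, the inhibitor of NF-kB signalling, where 1.31% of all genes rose. Slopes were positive for 18 of the 19, and the list mean was above floxed colon in all 10 arrays (r = 0.92). Of 22 inflammasome and pyroptosis genes, Il1b, Il1a and Nlrp3 rose, and the execution genes Gsdmd and Casp1 had r of 0.77 and -0.19 (named after their values were seen).

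Some genes varied widely without following the index. The Y-linked genes Uty, Eif2s3y and Kdm5d split the arrays cleanly, with Uty between 8.35 and 8.62 in replicates 24, 25, 117, 120 and 124 and between 2.25 and 3.72 in replicates 21, 22, 23, 89 and 95. Each kind of array therefore held low and high index values, and r was 0.14 for Uty. This r joins opposite directions, since the slope of Uty was -0.43 in the first series and 0.80 in the second. B cell genes were the next group. Fcrla was at 7.00 and 6.76 in replicates 25 and 117 and at 5.67 or less elsewhere, and Bank1 was highest in the same arrays (7.24 and 7.45). Btla, an inhibitory lymphocyte receptor, was highest in them too (6.29 and 6.40). Svs5 and Pate4, which encode seminal vesicle proteins, were high in replicate 120 alone, at 7.44 and 5.77 against at most 4.64 and 3.11 in the other 9 arrays.

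Some clock genes were lower in the arrays of higher index. Of 12, none reached 0.9 and 4 fell at 0.8, against 5.99% of all genes. The 4 were led by the repressor gene Nr1d2 (r = -0.89) and included the output gene Dbp (7.48 to 11.47, r = -0.84). Without replicates 22 and 117, r was -0.63 for Nr1d2 and -0.51 for Dbp. Dbp was below the floxed range of 8.45 to 11.83 only in replicates 117 and 22. A clock score set the activator genes Arntl, Clock and Npas2 against 7 genes they drive (Ciart, Nr1d1, Nr1d2, Per2, Per3, Dbp and Tef), as a difference of mean log2 signals. It was 1.67 in replicate 22, 1.62 in 23, 2.28 in 117 and 1.66 in 95, and between -0.47 and 0.48 in the other 6. Floxed arrays spanned -1.31 to 1.90 on this score while their index stayed between 3.56 and 3.96. The hour of collection is not in the labels, and its part in the clock signals was not tested. Of 13 immediate early genes, the transcription factor gene Egr2 rose (7.30 to 8.18, r = 0.93), where 1.31% of all genes rose.

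The same slopes were then measured in the 40 arrays of the other genotypes, which played no part in choosing the genes. There the index was used in a limma model with 1 mean per genotype and title series. Il1b, Cxcl2, Lcn2 and other inflammatory genes rose with the index there, and genes such as Mep1a and Naaladl1 fell. At a Benjamini-Hochberg adjusted p under 0.05, 477 of 19492 genes rose (2.45%) and 852 fell (4.37%). Of the 255 rising genes of FADD IEC-KO, 89 rose there (34.9%, which is 18.7% of the 477) and none fell. Of the 278 falling genes, 122 fell there (43.9%, which is 14.3% of the 852) and none rose. Slopes were positive for 234 of the 255, against 46.6% of all genes, and negative for 274 of the 278, against 53.4%.

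These counts rested on the CASP8 IEC-KO arrays, and above all on replicate 104. Without that array, 35 genes rose and 51 fell, and 8 and 11 of the members were among them. Without replicates 17 and 104, 3 rose and 1 fell. The CASP8 IEC-KO arrays alone gave 186 rising and 341 falling genes, with 52 members each way. Without any CASP8 IEC-KO array, limma gave 0 genes either way, with 560 rising and 564 falling at an unadjusted p under 0.05, against 1673 and 2467 with all 40 arrays. Leaving out replicate 17 alone gave 335 and 523.

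Of the 12 steepest rising genes, 11 passed in the other 40 arrays and Stfa2 did not (adjusted p = 0.0524 in limma). Il1b had a slope of 1.10 ± 0.13 (SE, adjusted p = 2.01e-06 in limma), and its CASP8 IEC-KO signals ran from 3.84 in replicate 108 to 8.09 in replicate 104. Retnlg (slope 0.54), Acod1 (0.59), Lcn2 (0.64) and Cxcl2 (0.47) had shallower slopes there than in FADD IEC-KO, and the difference between the slopes was not tested. Nos2 (slope 1.35, adjusted p = 1.02e-05 in limma), Plet1 (1.39, 3.99e-06) and Retnlb (1.03, 1.41e-05) were among the 6 rising genes of smallest adjusted p, with Khdc1a (0.83, 4.09e-07) and Khdc1c. Nlrp3 had a slope of -0.05 ± 0.07 (SE, adjusted p = 0.724 in limma) and Il1f9 of 0.01 ± 0.06 (adjusted p = 0.931 in limma), so neither passed in the other genotypes, whose index spans 3.39 to 6.53. Of the 12 steepest falling genes, 8 passed, among them Naaladl1 (slope -0.50, adjusted p = 5e-05 in limma), Ociad2 (-0.36) and Mep1a (-0.24). The largest falls were those of Mptx1 (slope -0.82, adjusted p = 1.05e-06 in limma) and Mptx2 (-0.69). Replicate 104 was the highest CASP8 IEC-KO array for 11 of the 12 steepest rising genes and the lowest for 9 of the 12 steepest falling genes.

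**Figure D5:**
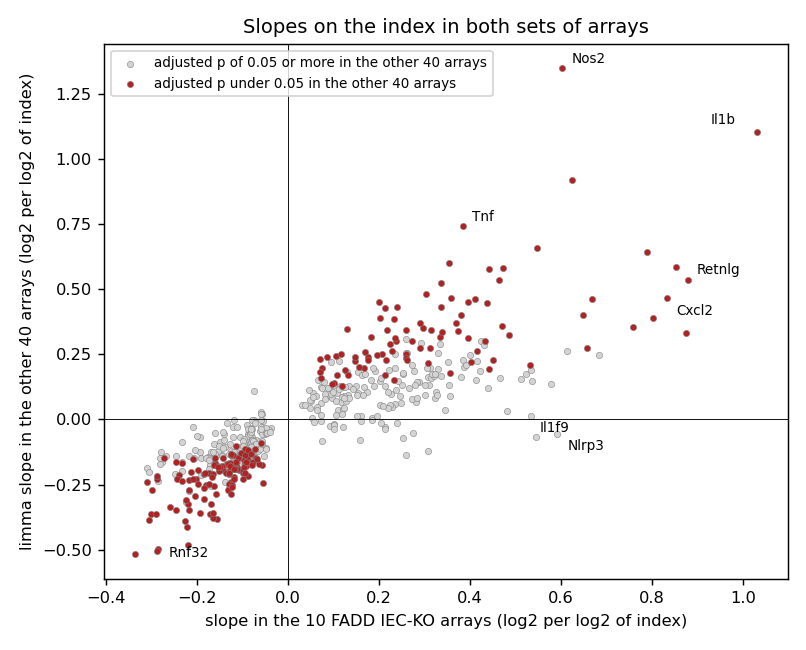
Slope on the index (log2 per log2 unit of index) in the 10 FADD IEC-KO arrays (horizontal) and in the other 40 arrays (vertical) for the 255 rising and 278 falling genes, with red for an adjusted p under 0.05 in limma over the other 40 arrays. Of these, 89 rising and 122 falling genes are red, and Nlrp3 and Il1f9 lie near 0 on the vertical axis.

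The lists were also counted over the other 40 arrays, under the limma threshold and not the limit on r. Of the 27 interferon-gamma genes, 21 rose and none fell. Of 21 neutrophil markers 7 rose, of 25 acute cytokines and chemokines 8 rose and 1 fell, of 24 antimicrobial genes 10 rose and 2 fell, and of 20 smooth muscle genes 8 fell. Of 25 xenobiotic genes 6 fell, and of 24 colonocyte genes none fell and 1 rose. Over all genes, 2.45% rose and 4.37% fell in these 40 arrays, and the colonocyte counts lie near these shares. Without the CASP8 IEC-KO arrays, no gene of any list passed.

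Promoters of the members held the sought motifs at somewhat different shares. RefSeq windows were found for 195 of the 255 rising and 222 of the 278 falling genes. TATAAA was in 28 of the 195 (14.4%) and 10 of the 222 (4.5%), against 7.59% of all windows. The NF-kB form was in 9 (4.62%) and 6 (2.7%), against 1.41%, and TTGCNNAA in 26 (13.3%) and 28 (12.6%), against 9.56%. Members were counted per gene, with a match in any of its windows, whereas the comparison counts single windows and is not limited to measured genes. The shares are therefore not strictly alike. These shares were not tested, and the members were chosen by their signals in these arrays.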

How the data were processed

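Colon RNA (100 ng per array, per the labels) of 50 samples was measured on Affymetrix arrays, and signals were made in Affymetrix Expression Console and Transcriptome Analysis Console, per the submitters' processing notes. Software versions and the algorithm of normalization were not named in the sources. The authors deposited 1 log2 signal for each probe set, which was checked on the range (1.18 to 13.3) and on array medians of 6.41 to 6.47. Of 22142 deposited probe sets, 19527 carried 1 gene symbol, 0 several and 2615 none. The brightest probe set of a gene was kept (33 dropped), which left 19494 genes. No detection calls were used. The number of arrays limits the precision, and p-values measure only the spread between these samples. Symbols and promoters came from RefSeq tables of GRCm38.p6.

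Genes were centred within each title series, and slopes and r on the index were computed in Python 3.11.15 (numpy 2.4.6, pandas 2.3.3). The other 40 arrays were fitted in limma 3.58.1 (R 4.3.3) with 1 slope, 1 mean per genotype and series and 31 residual degrees of freedom, with Benjamini-Hochberg adjustment across 19492 genes. On simulated data for this fit over 19492 genes, 43% of slopes of 0.2 and 97% of slopes of 0.4 were recovered, with 3 unchanged genes called beside 200 changed ones.

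The members, and 28 gene lists (518 of 566 entries matched a gene), were chosen with earlier results of these data known. Genes named were the index genes, the 5 targeted genes, the 12 steepest rising and 12 steepest falling genes (without predicted and immunoglobulin genes), the 12 of largest SD, the 8 of largest SD with r between -0.3 and 0.3, up to 4 of largest r per list, and the 6 of smallest adjusted p each way in the other 40 arrays. The alternatives were S100a8 or S100a9 alone or other neutrophil markers as index, Spearman rho, a limit of 0.8, no centring, quantile normalization, tests without the dimmest 40% of genes, moderation with trend and robust settings, and leaving out arrays. Leaving out FADD IEC-KO replicates 22 and 117 together, and CASP8 IEC-KO replicates 17 and 104 together, was added after the data were seen.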

Additional observations from a re-analysis of the deposited data

Results flagged for a closer look

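Of 156 sets of values checked for a sample that stands apart, 4 had one, and chance gives about 1 in 20. Many sets share the same arrays, and Svs5 and Pate4 were named for their large SD, so this rate is only a rough guide. The index of CASP8 IEC-KO replicate 17 was 5.90, against 3.43 to 3.85 in the other 4 arrays of its group and series. The remaining 3 were centred signals among the 10 FADD IEC-KO arrays. Svs5, a seminal vesicle protein gene, was 2.43 above its series mean in replicate 120, where the other 9 arrays lay between -0.99 and 0.28. Pate4, another gene of the seminal vesicle, was 2.26 above it in the same array, against -0.71 to 0.25. Alox5ap, which supplies arachidonic acid to leukotriene synthesis, was 0.87 above it in replicate 22, the array of highest index, against -0.29 to 0.19.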

How the results depend on the processing

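In FADD IEC-KO, the limit of 0.8 gave 815 rising (4.18%) and 1168 falling genes (5.99%), and removal of the dimmest 40% left 142 rising genes, 47 genes with an SD of at least 1 and 59 members that also rose in the other 40 arrays. Without replicates 22 and 23, 438 genes fell and 79 had that SD. Without replicates 22 and 117, 53 had it. For the index and its spread in FADD IEC-KO, the within-series SD was then 1.77 in place of 2.70. Leaving out 1 array gave 229 to 414 rising genes (most without replicate 25) and 281 to 512 falling genes (most without replicate 23, and 494 without replicate 25). Spearman rho gave 179 and 294 genes, of which 62 and 98 were shared with those counted by Pearson r. Over the other 40 arrays, other neutrophil markers as index gave 1397 falling genes. The CASP8 IEC-KO arrays alone gave 186 rising and 341 falling genes and 52 and 52 members, and without them all 4 counts were 0. Without CASP8 IEC-KO replicates 17 and 104, the counts were 3 and 1, with 2 and 0 members. Leaving out 1 array gave 35 to 541 rising and 51 to 945 falling genes, with 8 to 102 and 11 to 132 members, the lowest without replicate 104. Slopes of the 146 genes given by name moved by more than their SE in 384 comparisons and by less in 2190, and no slope of a gene counted as rising or falling changed sign. Of the 384, 136 came from the index of other neutrophil markers. The mean of those markers rose by 0.39 per unit of the main index, so slopes on it are on another scale. The cause of the other shifts was not tested. No paired analysis was possible because the title numbers are unique to each array. Dim genes have no detection calls, the index spans a narrow range outside FADD IEC-KO, and 1 array stands at each level of the gradient.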
